A study of Homo sapiens with 18 samples.

Results

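Parental MDA-MB-231 spheroids (Jag1WT) were compared with spheroids of the same line after JAG1 knockout (Jag1KO), which took 6 of the 18 RNA sequencing libraries of the series. The libraries were chosen by their labels, with 3 biological replicates of each genotype, and the genes by a level above 1 CPM (counts relative to library size, scaled between libraries by the authors) in at least 3 of the 6 libraries, which kept 12928 of 21411 genes. MDA-MB-231 is an established triple-negative breast cancer cell line. In both groups 50000 cells were embedded in 2 mg/ml Matrigel, a basement membrane gel, and grown for 7 days without siRNA or plasmid. Jag1WT is the unedited line. Jag1KO was made with Cas9 and a guide RNA against exon 2 of JAG1, and is an equal mixture of 15 clones that each grew from 1 sorted cell, so that a clone's own traits and the loss of JAG1 both enter every Jag1KO library. The other 12 libraries came from siCtrl and siJag1 cells, which are Jag1WT cells given a nontargeting or a JAG1 siRNA, and from Jag1KO + rescue and Jag1KO + ctrl cells, which are Jag1KO cells carrying a JAG1 cDNA or the empty plasmid under G418 selection. They are used here only where a gene's response in the knockout is set beside its response there.

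Notch receptors are membrane proteins that are activated by ligands on neighbouring cells. JAG1 encodes Jagged1, one of these ligands, and ligand binding lets ADAM proteases and then γ-secretase free the receptor's intracellular domain, which enters the nucleus, joins the DNA-binding protein RBPJ and switches on targets such as the HES and HEY repressors. In carcinomas the pathway is known for roles in cell fate, stem cell traits and signalling between tumour cells and the stroma.

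Between 10330581 and 15328059 reads per library were counted on genes. The libraries did not sort by genotype alone. Jag1KO replicate 1 correlated more closely with Jag1WT replicate 1 (Pearson's r = 0.989 across genes, on log2 values) than with Jag1KO replicate 2 (0.964), and on the first principal component, which held 60.3% of the variance, Jag1WT replicate 2 lay between these libraries and Jag1KO replicates 2 and 3. Proliferation genes differed in the same way. The mean log2(CPM + 1) over S phase and G2/M genes was 4.14, 4.91 and 4.10 in Jag1WT replicates 1, 2 and 3, and 4.11, 5.55 and 5.67 in Jag1KO replicates 1, 2 and 3. The cell line's markers VIM, CD44, EGFR, AXL, CAV1, MSN, KRT8 and KRT18 were all expressed, between 40.3 and 3853 CPM, and 0 of these 8 passed the test between the genotypes. Of the markers of other cells, ESR1, LUM and CD3E had 0 reads, and PGR, CDH1, CDH5, FAP, DCN, THY1 and PTPRC stayed below 1 CPM in every library. Others passed the filter, 4 of 8 luminal, 1 of 10 fibroblast, 3 of 7 endothelial and 2 of 8 leukocyte markers, with 0 called. The leukocyte marker CD68 had means of 114 CPM in Jag1WT and 131 CPM in Jag1KO. The endothelial marker KDR had 6.85 and 12.1 CPM, the fibroblast marker COL1A1 5.85 and 5.64 CPM, and the luminal marker FOXA1 0.683 and 1.34 CPM. The cultures were set up with MDA-MB-231 cells only. Fewer cells that express a gene and less of its RNA per cell cannot be told apart in such bulk libraries.

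JAG1 itself (Entrez 182), on the minus strand of chromosome 20 (hg38, 10637684 to 10673999), with the targeted exon 2 at 10672701 to 10673006 (306 bp), was measured at 433, 585 and 522 CPM in the Jag1WT libraries and at 116, 205 and 149 CPM in the Jag1KO libraries. The groups did not overlap. Jag1KO retained 30.5% of the Jag1WT level, with 1559 to 2654 reads per library, a log2 fold change of 1.71 for Jag1WT over Jag1KO (95% confidence interval 1.21 to 2.21, adjusted p = 0.0138 in edgeR's quasi-likelihood test, which is meant by adjusted p throughout). The counts are summed over the whole gene, so they do not show which transcripts carried an edit. The exact permutation test gave a two-sided p of 0.1, the smallest that 3 libraries against 3 allow. The call of JAG1 was lost without any 1 of the Jag1WT libraries or without Jag1KO replicate 3 (adjusted p of at most 0.130).

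The receptors and the other ligands did not pass the test. Per length, as RPKM (reads relative to gene length and library size), the Jag1WT levels ran from JAG1 (85.8) over NOTCH2 (35.1) and NOTCH1 (7.44) to JAG2 (0.269) and NOTCH4 (0.0850), and in Jag1KO NOTCH2 came first at 33.1 RPKM and JAG1 second at 26.2 RPKM. NOTCH2 had 429, 458 and 418 CPM in Jag1WT and 415, 415 and 401 CPM in Jag1KO, a log2 fold change of 0.08 whose 95% interval ran from -0.14 to 0.30. NOTCH1 had 63.4, 76.5 and 67.4 CPM against 82.1, 46.4 and 50.2 CPM, with overlapping groups. NOTCH4 was near the lower limit of measurement, at 0.442, 0.301 and 0.978 CPM in Jag1WT and 1.17, 1.16 and 1.72 CPM in Jag1KO (log2 fold change -1.19, standard error (SE) 0.464, adjusted p = 0.481). DLL1, DLL4 and NOTCH3 fell under the CPM filter and DLL3 had 0 reads. Of the 23 tested genes that process the ligands and receptors or work with the freed domain in the nucleus, 0 passed the test, and their median log2 fold change was 0.09 beside -0.01 over all genes tested. RBPJ had 345, 445 and 361 CPM in Jag1WT and 324, 456 and 376 CPM in Jag1KO. MIB1, an E3 ligase that ubiquitinates Notch ligands, had the smallest p among them (log2 fold change 0.32, SE 0.129, adjusted p = 0.502).

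HES1, a repressor that is a direct Notch target, had 13.4, 11.2 and 22.3 CPM in Jag1WT and 3.72, 0.927 and 1.05 CPM in Jag1KO. Every Jag1WT library lay above every Jag1KO library, and Jag1KO replicate 1 was the highest of its group. The log2 fold change was 2.99 (SE 0.513, 95% interval 1.81 to 4.16), but the adjusted p of 0.05003 was just above the threshold, so that HES1 was not called. It was called by limma (adjusted p = 0.0266), by DESeq2 (adjusted p = 1.91e-07) and without Jag1KO replicate 1 (log2 fold change 3.97, adjusted p = 5.74e-04). With the S phase and G2/M level of each library as a covariate it was called too (2.43, adjusted p = 3.31e-05). With the replicate number as a block it was not called (3.02, adjusted p = 0.0695). With another single library left out its adjusted p rose to at most 0.232. HES1 lies on chromosome 3 from 194136148 to 194138732 on the plus strand. Its promoter is shown because it holds the bases TGGGAA, the core that RBPJ binds, more than once, and the promoter of COL6A3, the gene with the smallest p, is shown beside it. Both are the 250 bases before the RefSeq start (GRCh38.p14), at chr3:194135898-194136147 on the plus strand and chr2:237414165-237414414 on the minus strand, read 5′ to 3′, with capitals marking TGGGAA or its reverse complement TTCCCA.
HES1: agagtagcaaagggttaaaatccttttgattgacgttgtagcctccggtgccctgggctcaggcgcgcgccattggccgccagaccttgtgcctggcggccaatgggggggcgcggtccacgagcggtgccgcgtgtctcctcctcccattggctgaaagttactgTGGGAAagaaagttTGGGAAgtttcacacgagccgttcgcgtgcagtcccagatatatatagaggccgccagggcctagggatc
COL6A3: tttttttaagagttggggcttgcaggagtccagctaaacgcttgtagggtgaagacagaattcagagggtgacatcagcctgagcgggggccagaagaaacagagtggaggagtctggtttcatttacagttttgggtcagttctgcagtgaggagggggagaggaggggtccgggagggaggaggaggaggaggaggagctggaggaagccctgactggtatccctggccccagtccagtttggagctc
HES1 held 2 copies, which began 84 and 70 bases before the start, and COL6A3 held 0 in this window. On either strand the motif was found in 24.9% of the 10256 tested genes with a RefSeq promoter, in 12 of 36 genes called higher in Jag1WT (33.3%) and in 5 of 29 called lower (17.2%). A match of these letters is a description and not a binding site.

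Of the 8 tested Notch targets, 0 were called, and their median log2 fold change was 0.13. Apart from HES1 the changes were small. HES4 had 1.96, 2.26 and 2.80 CPM against 2.09, 1.39 and 1.34 CPM (log2 fold change 0.52, adjusted p = 0.670), and HEY1 had 7.51, 8.49 and 8.74 CPM against 8.35, 7.88 and 6.31 CPM (0.13, adjusted p = 0.894). CCND1, which encodes cyclin D1, and MYC had log2 fold changes of 0.13 and -0.23, and DTX3L, SNAI2 and HES7 had 0.17, -0.19 and -0.10. HES5 had 0 reads, and HEY2, HEYL, NRARP, HES2, DTX1 and DTX4 fell under the filter.

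**Figure D1:**
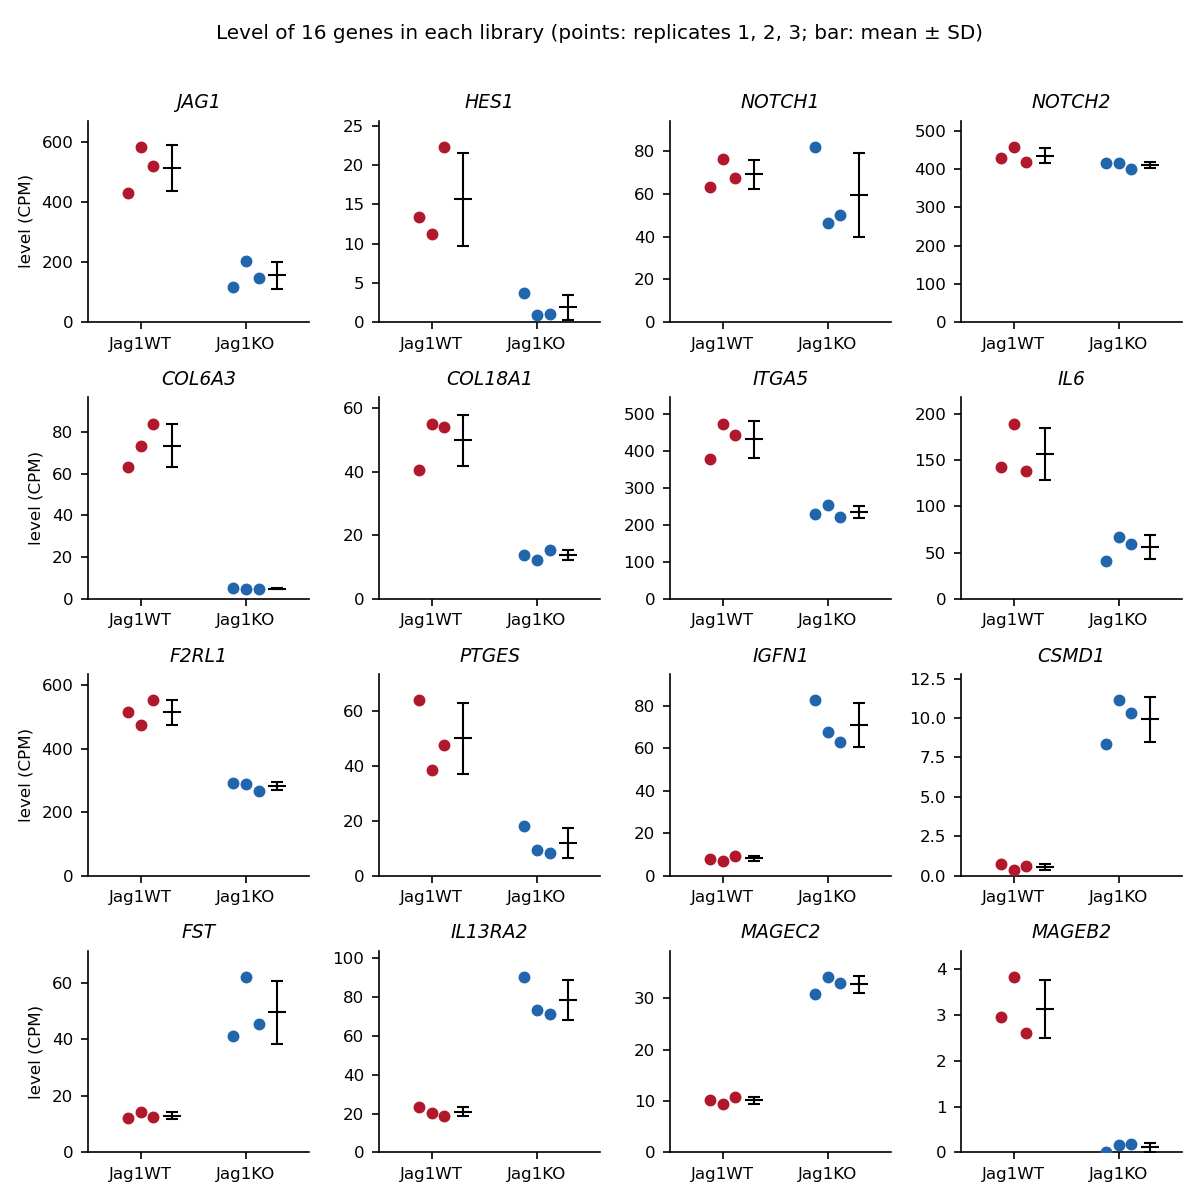
Level in CPM (vertical axes, each from 0) of 16 genes in the 3 Jag1WT libraries (red) and the 3 Jag1KO libraries (blue), with points in the order of replicates 1 to 3 and bars for the mean ± SD. JAG1 falls to 157 ± 45.1 CPM in Jag1KO but not to 0, COL6A3 and IGFN1 separate the groups with narrow spreads, and NOTCH1 and NOTCH2 do not separate them in the test.

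Over all genes, 53 were called higher in Jag1WT and 38 lower, with an adjusted p below 0.05 and a fold change above 1.5. This is 0.410% and 0.294% of the 12928 genes tested, or 0.704% in either direction, and 1131 genes had an unadjusted p below 0.05. For each of the 91, every library of one genotype lay above every library of the other, as it did for 13.8% of all genes tested (7.22% with Jag1WT higher and 6.61% with Jag1WT lower). The calls rested strongly on single libraries. Without Jag1KO replicate 1 the counts rose to 336 higher and 530 lower, and all 91 were among them, while 13, 20 and 11 of the 91 remained called without Jag1WT replicates 1, 2 and 3, and 37 and 14 without Jag1KO replicates 2 and 3. In all 6 of these fits 11 genes were called, namely COL6A3, COL18A1, IGFN1, CSMD1, KCNN3, IL13RA2, MAGEC1, MAGEC2, ADGRF1, AZGP1 and LYPLAL1-DT, the last 3 of which are outside the rule for named genes. The other calls were lost without at least 1 of the Jag1WT libraries or of Jag1KO replicates 2 and 3, 51 of them in every fit but the one without Jag1KO replicate 1, with adjusted p up to 0.253. Among these 51 were BMP1, LTBP1, CTSB, TIMP1, ADAMTS9, ITGA5, ITGB3, TGFBR1, CXCR4, F2R and PTGES. With the S phase and G2/M level of each library as a covariate, 90 of the 91 were called among 221 higher and 111 lower. Just inside the CPM filter was SNORA44, whose third-highest library had 1.004 CPM, and just outside was SYNC with 0.979 CPM.

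**Figure D2:**
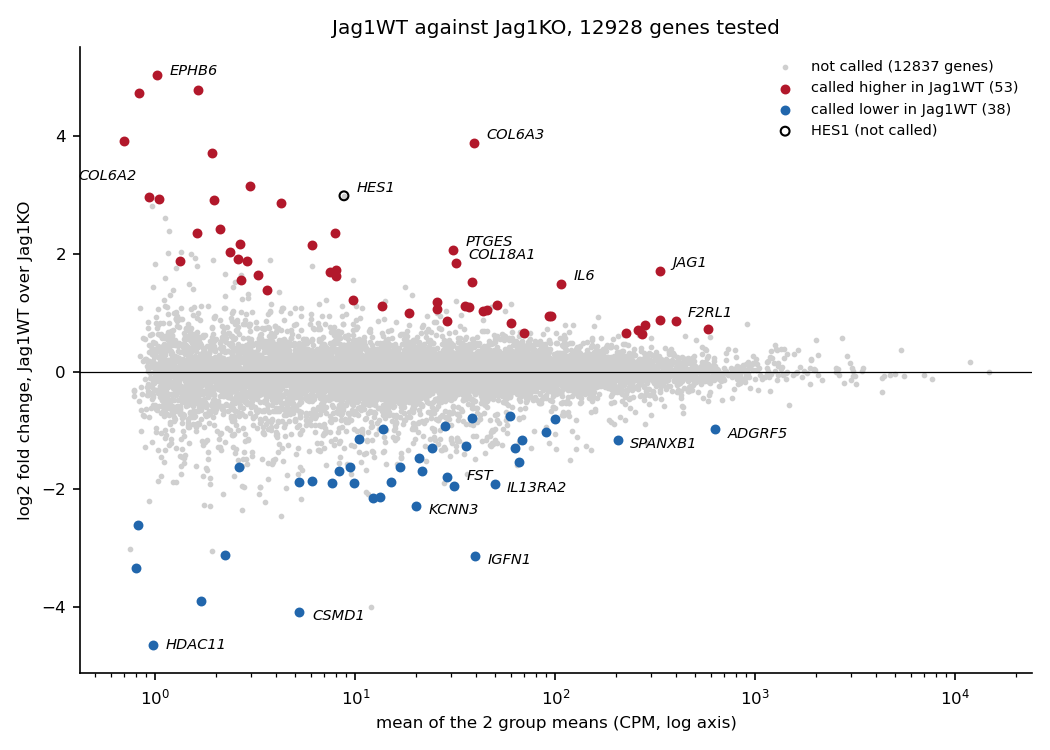
Log2 fold change of Jag1WT over Jag1KO (vertical axis) against the mean of both group means in CPM (horizontal, log axis) for the 12928 genes tested, with genes called higher in Jag1WT in red and lower in blue. COL6A3 and IGFN1 stand apart at levels far above the filter, HES1 is drawn as an open circle because it was not called, and COL6A2, which had 0 reads in Jag1KO, is drawn at its lower bound.

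Collagen genes gave the largest change among the matrix genes. Of 19 tested collagen genes 3 were called higher in Jag1WT and 0 lower, and the list's median log2 fold change was 0.21 beside -0.01 over all genes. COL6A3, the long α3 chain of the microfibril-forming collagen VI (chromosome 2, 237324018 to 237414164), had 63.1, 73.0 and 83.9 CPM in Jag1WT and 5.22, 4.79 and 4.87 CPM in Jag1KO. The knockout thus held 6.76% of the parental level, with a log2 fold change of 3.88 (SE 0.159, adjusted p = 6.48e-05) that was called in all 6 fits without 1 library. COL6A2, the α2 chain of the same protein, was rare in Jag1WT, with 1.64, 2.18 and 1.76 CPM (26, 29 and 27 reads), and had 0 reads in each Jag1KO library, which allows up to 3 reads per library. It was at least 7.82-fold higher in Jag1WT (adjusted p = 0.0138), and its call was lost without any Jag1WT library or Jag1KO replicate 3. COL6A2 passed the filter only through Jag1WT, so that its direction followed from the filter. The α1 chain, COL6A1, had 45.9, 51.2 and 66.4 CPM against 42.1, 27.9 and 31.3 CPM and did not pass (log2 fold change 0.69, SE 0.195, adjusted p = 0.283).

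COL18A1, which encodes the basement membrane collagen from which endostatin is cut, had 40.6, 55.2 and 54.1 CPM in Jag1WT and 13.9, 12.3 and 15.5 CPM in Jag1KO (log2 fold change 1.85, SE 0.170, adjusted p = 0.00408, called in 6 of 6 fits without 1 library). Other chains stayed short of the threshold. COL5A1, a chain of the fibril-regulating collagen V, had 60.3, 66.7 and 71.9 CPM against 44.04, 37.9 and 45.3 CPM (adjusted p = 0.0701), and COL4A1 of the basement membrane network had a log2 fold change of 0.57 (adjusted p = 0.328). In the opposite direction, COL12A1 had 41.1, 45.9 and 33.5 CPM in Jag1WT and 60.7, 80.6 and 83.5 CPM in Jag1KO (log2 fold change -0.90, adjusted p = 0.0640), and COL13A1, COL8A1 and COL9A2 had -0.69, -1.56 and -1.56 (adjusted p of 0.445, 0.301 and 0.227). COL1A1, the main chain of fibrillar collagen I, was low in both, at 4.61, 8.04 and 4.89 CPM against 4.31, 7.65 and 4.97 CPM, and COL1A2 had 3 reads in all 6 libraries. Without Jag1KO replicate 1, 6 collagen genes were called higher and 4 lower, and with the proliferation covariate 5 and 1.

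Matrix assembly genes gave single calls. Of 21 collagen hydroxylases and processing genes, BMP1, the protease that removes procollagen C-propeptides, was called, with 35.6, 34.7 and 40.3 CPM against 21.7, 19.8 and 19.4 CPM (log2 fold change 0.86, adjusted p = 0.0298, list median 0.11). Of 14 basement membrane glycoproteins, the laminin-binding netrin NTN4 was called, with 121, 135 and 111 CPM against 62.3, 71.8 and 55.0 CPM (0.95, adjusted p = 0.0186, list median 0.10). Of 25 fibronectin and matricellular genes, LTBP1, which ties latent TGFβ to the matrix, was called, with 313, 295 and 359 CPM against 216, 182 and 189 CPM (0.71, adjusted p = 0.0434, list median 0.12). In none of these 3 lists was a gene called lower. CCN2, a matricellular protein made downstream of YAP and TGFβ, had 114, 186 and 218 CPM against 237, 468 and 493 CPM, with a log2 fold change of -1.21 that did not pass (adjusted p = 0.281).

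Matrix proteases and their inhibitors were called in both directions, 2 higher and 2 lower in Jag1WT of 26 tested, and the list's median was 0.02. CTSB, the lysosomal cysteine protease cathepsin B, had 716, 678 and 768 CPM in Jag1WT and 471, 409 and 428 CPM in Jag1KO (log2 fold change 0.72, adjusted p = 0.0298). TIMP1, an inhibitor of matrix metalloproteinases, had 283, 274 and 272 CPM against 196, 159 and 167 CPM (0.66, adjusted p = 0.0400). Both differences were below 2-fold but larger than the spread within each group. The proteoglycan-cleaving enzymes went the other way. ADAMTS1 had 15.2, 9.85 and 13.8 CPM in Jag1WT and 51.1, 41.7 and 41.1 CPM in Jag1KO (log2 fold change -1.79, adjusted p = 0.00752, lost without Jag1WT replicate 3 or Jag1KO replicate 3). ADAMTS9 had 39.3, 28.3 and 33.8 CPM against 63.4, 108 and 120 CPM (-1.53, adjusted p = 0.0360), and it was the only call of the 91 lost with the replicate number as a block. MMP10 had 79.5, 67.5 and 100 CPM against 63.2, 22.8 and 25.2 CPM and did not pass (adjusted p = 0.415).

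Integrin subunits, the receptors for these matrix proteins, had the highest list median, 0.30. Of 15 tested, 2 were called higher in Jag1WT and 0 lower. ITGA5, the α chain of the fibronectin receptor, had 378, 475 and 443 CPM in Jag1WT and 231, 253 and 221 CPM in Jag1KO (log2 fold change 0.87, SE 0.123, adjusted p = 0.0210). ITGB3, the β chain that pairs with αV, had 11.6, 13.2 and 15.8 CPM against 5.02, 6.57 and 5.83 CPM (1.22, SE 0.202, adjusted p = 0.0422). Each Jag1WT library was higher than each Jag1KO library in 7 of the 15 subunits and lower in 0, beside 7.22% and 6.61% of all genes. Among these, the collagen receptor subunit ITGA1 had 198, 171 and 271 CPM against 98.1, 111 and 128 CPM (adjusted p = 0.0840), and the laminin receptor subunit ITGA3 a log2 fold change of 0.54 (adjusted p = 0.150). ITGB1, the common β chain, had 1364, 1387 and 1330 CPM against 1375, 1401 and 1393 CPM, a log2 fold change of -0.03 (SE 0.103).

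In the TGFβ and BMP list 1 of 36 genes was called in each direction. TGFBR1, the type I TGFβ receptor, had 132, 119 and 125 CPM in Jag1WT and 79.1, 61.2 and 54.5 CPM in Jag1KO (log2 fold change 0.94, SE 0.141, adjusted p = 0.0298). FST, which encodes the activin antagonist follistatin, had 12.1, 14.4 and 12.4 CPM against 41.2, 62.1 and 45.4 CPM (-1.94, SE 0.185, adjusted p = 0.00481, lost without Jag1WT replicate 1 or 3). SMAD3, a transcription factor of the pathway, had 348, 296 and 312 CPM against 231, 193 and 191 CPM, and missed the threshold (0.63, adjusted p = 0.0628). The list's median was 0.06.

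Of 35 cytokine, chemokine and receptor genes 2 were called, both higher in Jag1WT. IL6 had 142, 190 and 139 CPM in Jag1WT and 41.3, 67.0 and 59.7 CPM in Jag1KO (log2 fold change 1.48, SE 0.203, adjusted p = 0.0186), and the chemokine receptor CXCR4 had 4.36, 3.38 and 4.30 CPM against 1.30, 1.62 and 1.146 CPM (1.55, SE 0.263, adjusted p = 0.0456). The list's median was 0.03. CSF2 and IL11, 2 further cytokines, stayed outside, CSF2 with 171, 239 and 185 CPM against 121, 111 and 113 CPM (adjusted p = 0.0572) and IL11 with 8.52, 12.2 and 6.72 CPM against 32.6, 23.2 and 18.2 CPM (log2 fold change -1.44, adjusted p = 0.0701).

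Of 17 genes for thrombin receptors, tissue factor and prostaglandins, 3 were called higher and 0 lower. The list's median was -0.13, and 0.29 with the proliferation covariate. F2RL1 and F2R encode the protease-activated receptors PAR2 and PAR1 and lie beside each other on chromosome 5, from 76819030 and from 76716126. F2RL1 had 516, 476 and 553 CPM in Jag1WT and 291, 288 and 267 CPM in Jag1KO (log2 fold change 0.86, SE 0.105, adjusted p = 0.0118), and F2R had 74.2, 73.5 and 82.2 CPM against 41.3, 42.3 and 46.0 CPM (0.82, SE 0.108, adjusted p = 0.0156). The spread within each group was narrow for both. PTGES, the terminal enzyme of prostaglandin E2 synthesis, changed more and varied more, with 63.9, 38.6 and 47.5 CPM against 18.01, 9.35 and 8.22 CPM (2.06, SE 0.310, adjusted p = 0.0298). Without Jag1WT replicate 1, 2 or 3 and without Jag1KO replicate 2 or 3 the call of PTGES was lost. F2R was lost in the same fits. F2RL1 was lost without Jag1WT replicate 1 or 3 and without Jag1KO replicate 2 or 3.

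Guidance genes, which steer growing axons and migrating cells, gave 3 calls higher in Jag1WT and 0 lower of 36, with a list median of 0.19. EPHB6, a kinase-dead ephrin receptor, had 1.70, 1.804 and 2.41 CPM in Jag1WT and 0.0652, 0 and 0.0955 CPM in Jag1KO (log2 fold change 5.03, SE 0.576, adjusted p = 0.0113). CELSR1, an atypical cadherin of planar cell polarity, had 4.99, 5.64 and 5.48 CPM against 0.848, 0.154 and 0.764 CPM (3.16, SE 0.430, adjusted p = 0.0186). Both lay below 1 CPM in every Jag1KO library and passed the filter only through Jag1WT, and EPHB6 had 0 or 1 read in Jag1KO, so the size of its fold change is uncertain. NTN4 was the third, given above. PLXND1 and PLXNA1, receptors for semaphorins, had log2 fold changes of 1.10 and 0.73 and did not pass (adjusted p of 0.0658 and 0.0977). ROBO2, the receptor for Slit ligands that was not in this list, was called in the other direction and is described below with the largest decreases.

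In 8 further lists for signalling and stress 0 genes were called. The interferon-stimulated genes (32 tested, median 0.04), ATF4 and amino acid stress (30 tested, 0.00) and the EGF receptor family (12 tested, -0.09) had medians within 0.1 of that of all genes. Of the 32 genes of hypoxia and glycolysis (median 0.06) 26 had a log2 fold change above 0, against 48.4% over all genes. With the proliferation covariate the medians of the hypoxia and the EGF lists were 0.42 and 0.33. Among the 20 genes of MHC class I presentation 17 had a log2 fold change above 0 and 3 below, and HLA-B had the smallest p, with 708, 693 and 750 CPM against 586, 420 and 414 CPM (log2 fold change 0.60, adjusted p = 0.191). Of 30 YAP and TEAD genes 21 had values below 0 (median -0.16), with ANKRD1 first at 50.0, 68.4 and 65.5 CPM against 72.7, 131 and 148 CPM (-0.94, adjusted p = 0.263). All Jag1WT libraries lay below all Jag1KO libraries in 8 of these 30 genes and above in 2, beside 6.61% and 7.22% of all genes. Of 21 genes for EMT factors, cadherins and stem cell markers (median -0.03), the polycomb gene BMI1 had the smallest p (-0.74, adjusted p = 0.218), and in the 16 genes for cyclin D and CDK inhibitors (median -0.04) CCND3 did (-0.40, adjusted p = 0.247). In the list of sterol and fatty acid synthesis 27 of 32 genes were below 0 (median -0.26) with 0 called lower, while the cholesterol exporter ABCA1 was called higher, at 44.4, 70.8 and 55.2 CPM against 18.1, 22.5 and 18.2 CPM (1.53, SE 0.192, adjusted p = 0.0134).

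**Figure D3:**
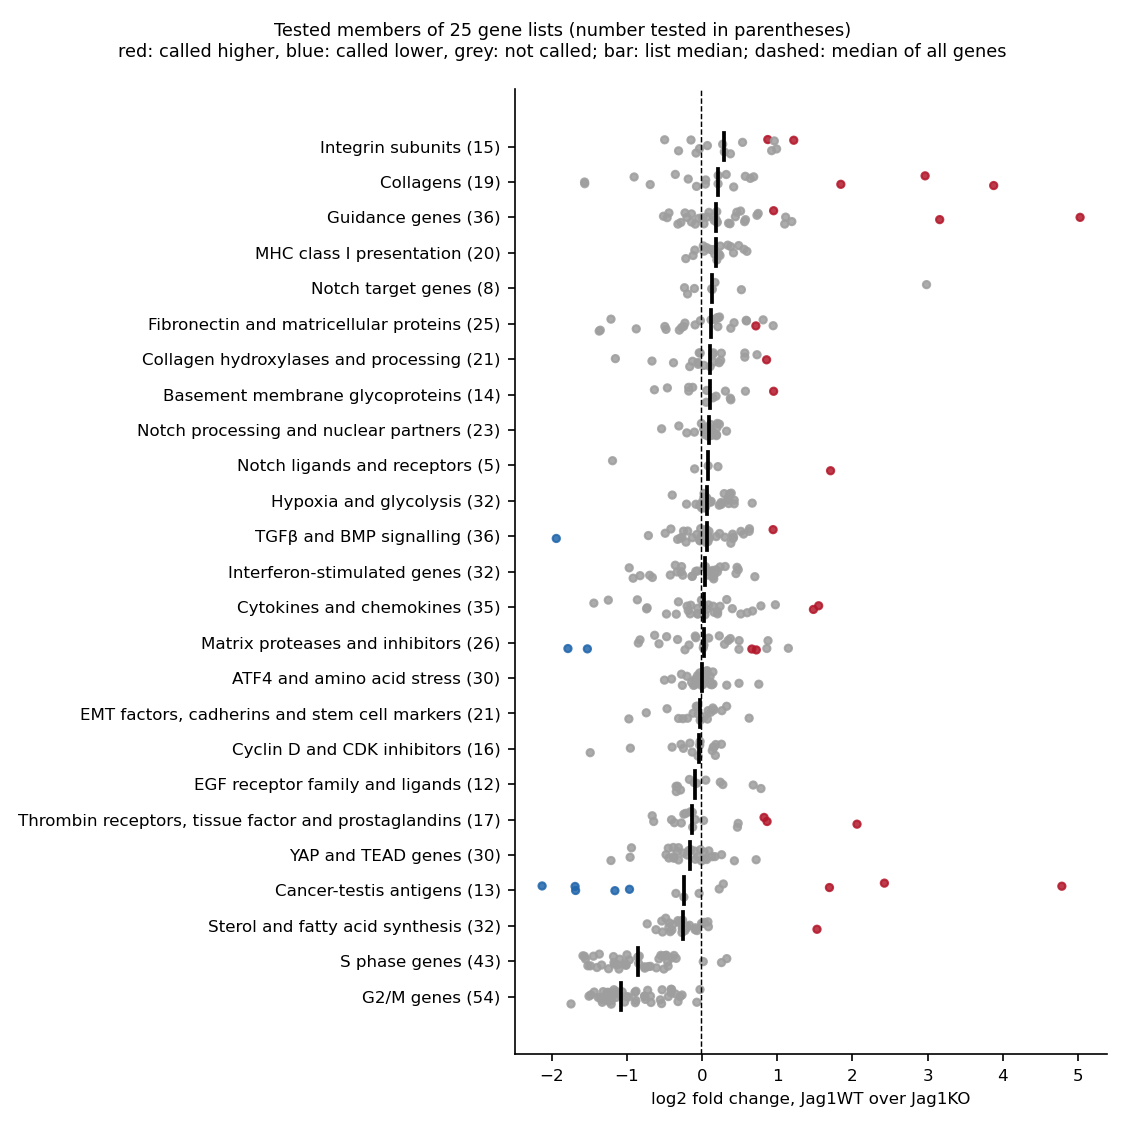
Log2 fold change of Jag1WT over Jag1KO (horizontal axis) for each tested member of 25 gene lists, ordered by list median (black bars), with members called higher in red, called lower in blue and not called in grey. The integrin, collagen and guidance lists lie at the top, with red points far to the right in the collagen and guidance lists only. The cancer-testis list has points at both ends, and the G2/M and S phase lists lie lowest without a called gene. COL6A2 is drawn at its lower bound.

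Proliferation genes had the lowest list medians without a single call. All 54 tested G2/M genes had a log2 fold change below 0 (median -1.08), and so had 40 of 43 S phase genes (median -0.86), against 51.6% of all genes. Every Jag1WT library lay below every Jag1KO library in 19 of 43 S phase and 0 of 54 G2/M genes, beside 6.61% of all genes. An unadjusted p below 0.05 with a value below 0 was found in 27 S phase genes and 1 G2/M gene, beside 570 of all 12928 genes. An example with overlapping groups is TYMS, the thymidylate synthase, with 20.2, 54.2 and 21.98 CPM in Jag1WT and 26.3, 141 and 120 CPM in Jag1KO. For TYMS, Jag1KO replicate 1 was close to Jag1WT replicates 1 and 3. Jag1WT replicate 2 lay between these and Jag1KO replicates 2 and 3, so that its groups overlapped. TYMS was chosen as the example after its values were seen (adjusted p = 0.591). Among S phase genes UHRF1, a maintenance factor of DNA methylation, had the smallest p, with 14.6, 15.0 and 12.1 CPM against 28.3, 23.2 and 37.4 CPM (-1.10, adjusted p = 0.0607). MCM2, a subunit of the replicative helicase, was not in the list and was called, with 30.4, 26.9 and 27.8 CPM against 49.5, 42.8 and 53.5 CPM (-0.78, adjusted p = 0.0400). Without Jag1KO replicate 1, 26 S phase and 11 G2/M genes were called lower in Jag1WT. The levels of these lists overlapped in the other groups too, with a mean log2(CPM + 1) of 4.18 to 5.02 in Jag1KO + rescue (median 4.23), 4.41 to 6.09 in Jag1KO + ctrl (5.72), 4.18 to 5.10 in siCtrl (4.48) and 4.32 to 6.07 in siJag1 (4.41).

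**Figure D4:**
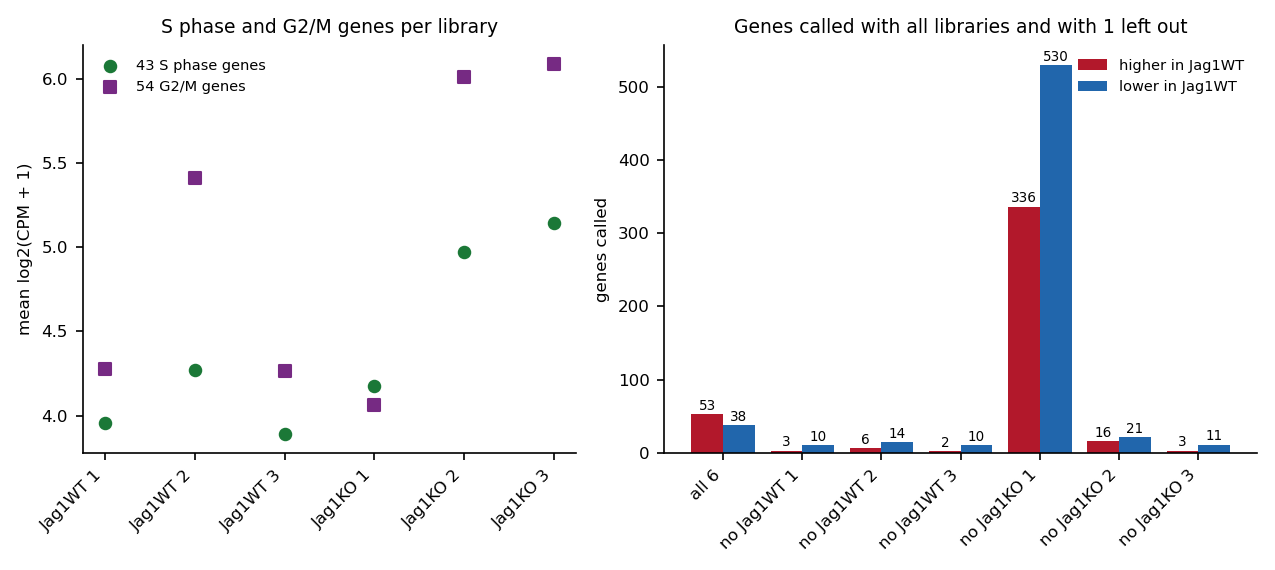
Left, mean log2(CPM + 1) of the S phase genes (circles) and G2/M genes (squares) in each library. For the G2/M genes Jag1KO replicate 1 lies with Jag1WT replicates 1 and 3. For the S phase genes Jag1KO replicate 1 (4.17) lies between these (3.96 and 3.89) and Jag1WT replicate 2 (4.27). In both lists Jag1WT replicate 2 is the highest of its group. Right, number of genes called higher (red) and lower (blue) in Jag1WT with all 6 libraries and with each library left out. The counts rise from 53 and 38 to 336 and 530 without Jag1KO replicate 1 and fall in the other 5 fits.

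The largest increases in Jag1WT beyond the matrix and guidance genes were mostly in genes of low level. PLEKHG4B had 1.96, 1.503 and 1.37 CPM in Jag1WT and 0.0652, 0 and 0.0955 CPM in Jag1KO (log2 fold change 4.74, SE 0.587, adjusted p = 0.0127). PLCB1, a phospholipase C that acts below G protein-coupled receptors, had 3.35, 3.01 and 4.30 CPM against 0.130, 0.232 and 0.478 CPM (3.71, adjusted p = 0.0113). LSR, a receptor of tricellular junctions and lipoproteins, had 1.26, 2.48 and 1.83 CPM against 0.196, 0.309 and 0.191 CPM (2.94, adjusted p = 0.0303). In each of these genes the knockout libraries held only a few reads and lay below 1 CPM, so that the gene passed the filter only through Jag1WT. For such a gene the filter itself sets the direction and the separation of the groups. SLPI, an inhibitor of leukocyte proteases, also passed only through Jag1WT, with 3.79, 2.56 and 4.11 CPM against 0.783, 0.232 and 0.287 CPM (2.91, adjusted p = 0.0300). The keratin gene KRT79 had 7.38, 6.99 and 7.89 CPM against 0.522, 1.16 and 1.43 CPM (2.87, SE 0.338, adjusted p = 0.0114).

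The largest decreases in Jag1WT, and so the genes most raised in Jag1KO, included several that are almost silent in the parental line. HDAC11, a histone deacetylase, had 0.189, 0 and 0 CPM in Jag1WT and 1.57, 2.63 and 1.43 CPM in Jag1KO (log2 fold change -4.64, SE 0.744, adjusted p = 0.0391). CSMD1, a large membrane protein with complement-like domains (chromosome 8, 2935361 to 4994914), had 0.757, 0.376 and 0.587 CPM against 8.35, 11.1 and 10.3 CPM (-4.08, SE 0.296, adjusted p = 0.00135). ROBO2 had 0.126, 0.226 and 0.261 CPM against 2.15, 2.86 and 4.49 CPM (-3.90, SE 0.466, adjusted p = 0.0114). All 3 lay below 1 CPM in every Jag1WT library and passed the filter only through Jag1KO, so that their direction and separation followed from the filter. CSMD1 alone of them was called in every fit without 1 library. IGFN1 (chromosome 1, 201190824 to 201228952), a muscle protein with immunoglobulin and fibronectin domains, rose from a clear level, with 8.02, 7.07 and 9.26 CPM in Jag1WT and 82.6, 67.7 and 63.0 CPM in Jag1KO (-3.13, SE 0.163, adjusted p = 2.31e-04). KCNN3, a calcium-activated potassium channel, had 6.00, 7.22 and 7.37 CPM against 30.9, 37.0 and 31.8 CPM (-2.28, SE 0.161, adjusted p = 0.00135). Both were called in all 6 fits without 1 library.

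Among the remaining large decreases, PDZK1IP1, a small membrane protein that binds PDZ domains, had 3.16, 4.89 and 5.48 CPM in Jag1WT and 12.7, 24.6 and 22.6 CPM in Jag1KO (log2 fold change -2.15, adjusted p = 0.0258). IL13RA2, the decoy receptor for interleukin 13, had 23.5, 20.4 and 18.9 CPM against 90.2, 73.3 and 71.4 CPM (-1.91, SE 0.138, adjusted p = 0.00135). The noncoding RNAs LINC02864 and LINC01602 and the pseudogene CHMP1B2P had mean levels of 0.460, 0.233 and 0.136 CPM in Jag1WT and 4.01, 1.40 and 1.46 CPM in Jag1KO, with log2 fold changes of -3.12, -2.60 and -3.33. LINC02864, LINC01602 and CHMP1B2P also lay below 1 CPM in every Jag1WT library and passed the filter only through Jag1KO. Reads of a pseudogene can be shared with its parent gene, so the value of CHMP1B2P is uncertain. The adhesion receptors ADGRF1 and ADGRF5, neighbours on chromosome 6, were both called, named here after their values were seen. ADGRF1 had 39.1, 34.4 and 36.2 CPM against 82.7, 92.5 and 93.4 CPM (-1.30, adjusted p = 0.00276), and ADGRF5 had 436, 376 and 461 CPM against 651, 917 and 934 CPM (-0.98, adjusted p = 0.0455).

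Cancer-testis antigens, normally restricted to germ cells and reactivated in tumours, were called at the highest rate of all lists and in both directions. Of 13 tested members 3 were higher and 5 lower in Jag1WT (list median -0.24, and 0.03 with the proliferation covariate). MAGEB2 had 2.97, 3.83 and 2.61 CPM in Jag1WT and 0, 0.154 and 0.191 CPM in Jag1KO (log2 fold change 4.79, SE 0.569, adjusted p = 0.0114), XAGE2 had 9.91, 12.1 and 12.5 CPM against 4.18, 3.32 and 3.06 CPM (1.69, adjusted p = 0.0124), and MAGEA12 had 3.22, 4.51 and 2.93 CPM against 0.457, 0.8496 and 0.669 CPM (2.42, adjusted p = 0.0220). In the opposite direction MAGEC1 had 4.23, 5.26 and 5.35 CPM against 20.3, 19.8 and 24.7 CPM (-2.13, adjusted p = 0.00285), and MAGEC2 had 10.2, 9.47 and 10.8 CPM against 30.9, 34.1 and 33.1 CPM (-1.69, adjusted p = 0.00268). In each of these genes the groups did not overlap, and MAGEB2 had at most 2 reads in a Jag1KO library. MAGEB2 and MAGEA12 passed the filter only through Jag1WT, so that for them the direction and separation followed from the filter. SPANXB1, PAGE5 and MAGEA11 were also lower, with means of 127, 3.92 and 9.28 CPM in Jag1WT and 283, 12.6 and 18.1 CPM in Jag1KO (log2 fold changes of -1.16, -1.68 and -0.97). MAGEA3 and MAGEA6 were not called, with log2 fold changes of -0.35 and -0.04. Members of these families are near copies of each other, and the counting of uniquely mapped reads can leave out or misplace those they share.

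The list's genes lie on the X chromosome, where 8 genes were called higher and 10 lower of 464 tested, 3.88% against 0.704% over all genes. In addition to the 8 of the list, these were CSAG1, MAGEA2B, EDA, LDOC1 and TIMP1 among those higher and SPANXC, SPANXA1, SPANXA2, IL13RA2 and CHMP1B2P among those lower, named after the values were seen where the rule for named genes did not take them. Some called genes that lie near each other changed in the same direction, in stretches drawn after their values were seen. MAGEA3 and MAGEA6, of the same family as MAGEA12, were not called, as given above. MAGEA2B, CSAG1 and MAGEA12, which lie between 152714586 and 152737669, had means of 3.82, 1.31 and 3.55 CPM in Jag1WT and 0.928, 0.0793 and 0.658 CPM in Jag1KO. CSAG1, like MAGEA12, passed the filter only through Jag1WT, so that the direction of both followed from the filter. SPANXB1, SPANXC, SPANXA1, SPANXA2, MAGEC1 and MAGEC2, between 141002594 and 142205290, were all lower in Jag1WT, with log2 fold changes from -1.16 to -2.13, while LDOC1 in the same stretch was higher (5.49, 4.96 and 5.28 CPM against 1.96, 1.78 and 2.29 CPM).

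The called genes were also read in the libraries where JAG1 was lowered by siRNA or raised by a plasmid. None of the 3 comparisons shares a library with another, but Jag1KO + rescue and Jag1KO + ctrl descend from the clone mixture, and siCtrl and siJag1 from the parental line. JAG1 was lowered by a like amount with siRNA without passing the threshold (log2 fold change 1.68 for siCtrl over siJag1, edgeR adjusted p = 0.103). It was raised by the rescue plasmid (2.22 for Jag1KO + rescue over Jag1KO + ctrl, edgeR adjusted p = 0.0226). Of the 53 genes higher in Jag1WT, 47 of 53 tested had a positive log2 fold change for siCtrl over siJag1 (median 0.61 beside 1.62 in the knockout), and 27 of 38 tested in the rescue (median 0.24). Of the 38 lower in Jag1WT, 25 of 32 tested were negative with siRNA (median -0.23 beside -1.69) and 13 of 37 in the rescue (median 0.19). The difference between the knockout and the siRNA effect, tested as an interaction, passed an adjusted p of 0.05 in 5 of the 53 and 9 of the 38 genes (0.106% of 13165 genes tested), and the difference from the rescue effect in 7 and 23 (0.603% of 13263). Because the knockout values chose these genes, smaller values elsewhere are to be read as a description. The share of all genes with each sign in the siRNA and rescue comparisons is not given here, so the counts by direction have no background beside them.

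COL6A3, HES1, IL6, ABCA1 and KRT79 kept the direction of the knockout in both comparisons. Of these only COL6A3 with siRNA passed the threshold there (edgeR adjusted p = 0.0420, and 0.104 in the rescue). HES1, IL6, ABCA1 and KRT79 had edgeR adjusted p of 0.116, 0.973, 0.810 and 0.973 with siRNA. In the rescue these were 0.104, 0.237, 0.104 and 0.106. COL6A3 had means of 80.7 and 16.5 CPM in siCtrl and siJag1 and of 18.1 and 3.52 CPM in Jag1KO + rescue and Jag1KO + ctrl, so that the rescued cells stayed below the parental level. HES1 had 13.3 and 4.42 CPM in siCtrl and siJag1 and 12.4 and 0.881 CPM in the rescued and control cells. IL6 had 197 and 88.7 CPM, and 111 and 49.7 CPM, with SDs of 69.2 and 31.7 CPM in the rescued and control cells. Its interaction tests gave an adjusted p of 0.9996 for siRNA and 0.826 for the rescue, which does not show that the effects are equal. COL18A1 had the direction of the knockout with siRNA without passing (59.9 and 25.8 CPM, edgeR adjusted p = 0.116). It had 11.8 CPM in rescued against 21.4 CPM in control cells, and its interaction with the rescue passed (adjusted p = 0.00515).

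For several cancer-testis antigens and near-silent genes the levels differed between the parental and the clone-derived cells also in these libraries. MAGEC1 had 5.30 and 5.25 CPM in siCtrl and siJag1, and 86.5 and 47.7 CPM in Jag1KO + rescue and Jag1KO + ctrl. MAGEB2 had 3.69 and 4.40 CPM in the siRNA groups and 0.213 and 0.140 CPM in the groups with a plasmid. CSMD1 had 0.426 and 0.896 CPM, and 15.7 and 13.8 CPM, and IGFN1 6.55 and 7.45 CPM, and 127 and 78.5 CPM. For all 18 called genes of the X chromosome both plasmid groups lay on the Jag1KO side of both siRNA groups, and the same held for 37 of the 53 genes called higher and 33 of the 38 called lower. It did not hold for JAG1, COL6A3, IL6, EPHB6, ABCA1, F2RL1, TGFBR1, ITGA5 or ITGB3, among others. The share was not counted over all genes tested. The knockout values chose the called genes, so these counts are a description. The clone mixture and the loss of JAG1 cannot be told apart within Jag1WT against Jag1KO.

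**Figure D5:**
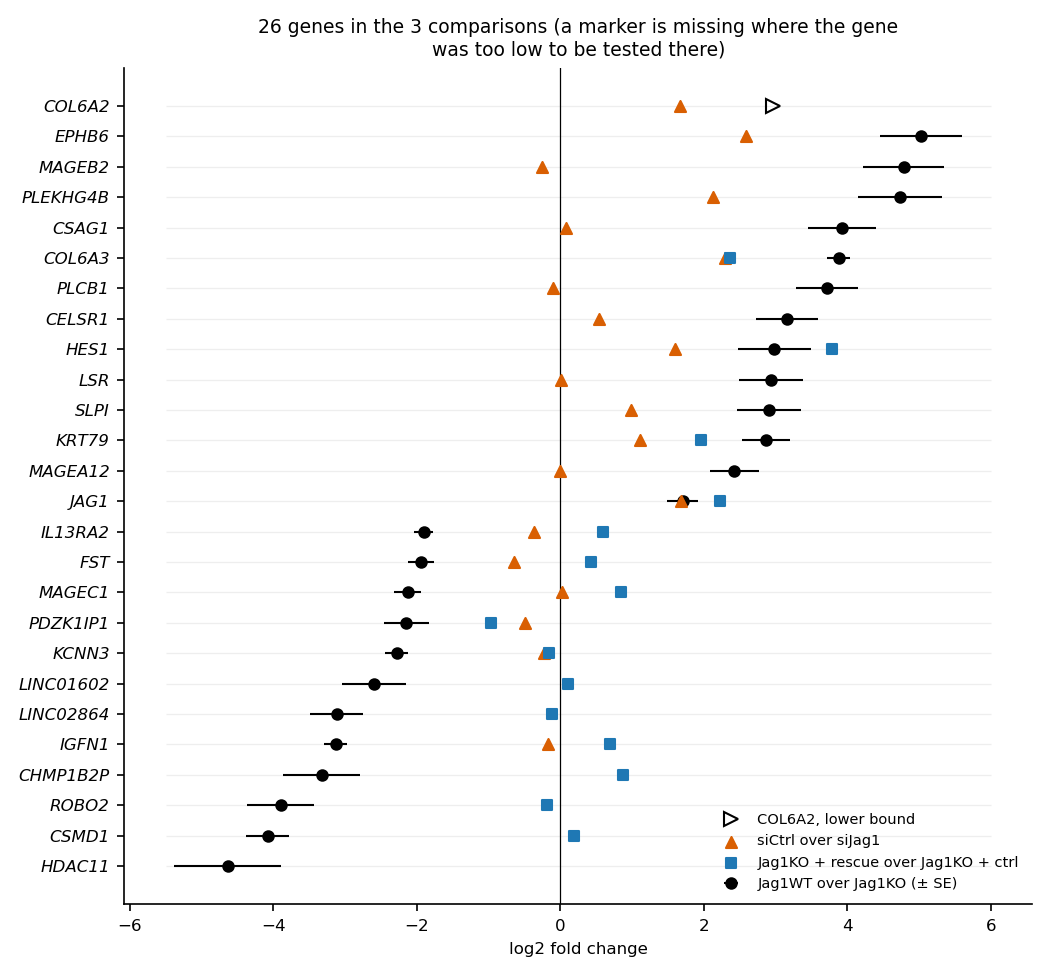
Log2 fold change (horizontal axis) of 26 genes, ordered by their fitted value, in Jag1WT over Jag1KO (black circles, ± SE), siCtrl over siJag1 (orange triangles) and Jag1KO + rescue over Jag1KO + ctrl (blue squares). COL6A2 is drawn at its lower bound (open marker). JAG1, COL6A3, KRT79 and HES1 lie on the right in all 3 comparisons, while for IGFN1 and MAGEC1 the triangles and squares lie nearer 0 than the circles. CSMD1 has no triangle, because it was too low to test with siRNA.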

How the data were processed

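Stranded mRNA libraries were sequenced, and the authors mapped them to hg38 and summed unique reads over each gene. Per the labels, featureCounts was used, whose strand setting and the aligner are not given in the sources used here. The deposited counts are whole numbers and not normalized. The deposited CPM table holds a signal scaled with TMM factors by the authors (edgeR 3.28.0), so that its column sums differ, and the deposited RPKM are these CPM per kilobase of gene. The 292 genes without a symbol carry an Entrez number and were kept. Of the RPKM columns 3 carried names that fit no label, and they were left out.

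Counts were tested with edgeR (4.0.16 in R 4.3.3; TMM factors, robust quasi-likelihood fit, two-sided, Benjamini-Hochberg adjustment over all genes tested) after the filter of above 1 CPM in at least 3 of 6 libraries. A gene was called at an adjusted p below 0.05 and a fold change above 1.5. Standard errors are the log2 fold change divided by the square root of F. Interactions used 12 libraries. limma (3.58.1, on log2(CPM + 1)), DESeq2 (1.42.0), other filters, a replicate block, a proliferation covariate and fits without 1 library were alternatives. The code was tested on simulated data. Replicates are labelled as biological, and none duplicated another (chi-square per degree of freedom of 8.88 to 50.3). The limit of 3 reads for a count of 0 covers counting error only. The study's own test, ROTS, was not run.

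Members and gene lists were chosen with earlier results of these data known. Named genes were JAG1, the 12 called genes with the largest fold change in each direction, every called member of a list, every tested Notch ligand, receptor and target, and the gene with the smallest p of a list without a call.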

Additional observations from a re-analysis of the deposited data

Results flagged for a closer look

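Several called genes had an effect in the knockout that differed, by a test of the difference itself, from the effect of JAG1 siRNA or of the rescue plasmid. Values are the log2 effect in the knockout minus the log2 effect in the other comparison, with edgeR's adjusted p. The genes were chosen by their knockout effect, and the same Jag1WT and Jag1KO libraries enter the test of the difference. A difference was therefore favoured in advance, and the values are a description. MAGEB2, CSAG1, PLCB1, MAGEA12, LSR, HDAC11, CSMD1, ROBO2, CHMP1B2P and LINC02864 also passed the filter only through the genotype where they are high.

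Against the siRNA comparison, genes higher in Jag1WT had differences of 5.04 for MAGEB2 (adjusted p = 0.0251), 3.85 for CSAG1 (0.0287), 3.83 for PLCB1 (0.0251), 2.44 for MAGEA12 (0.0287) and 1.61 for XAGE2 (0.0287). Genes lower in Jag1WT had -2.96 for IGFN1 (0.0133), -2.15 for MAGEC1 (0.0174), -2.04 for KCNN3 (0.0446), -1.61 for MAGEC2 (0.0251), -1.54 for IL13RA2 (0.0357) and -1.15 for SPANXB1 (0.0319). MAGEB2, CSAG1, MAGEA12, XAGE2, MAGEC1, MAGEC2, IL13RA2 and SPANXB1 lie on the X chromosome.

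Against the rescue comparison the differences were 3.30 for LSR (adjusted p = 0.0401), 2.91 for CXCR4 (0.0462), 2.73 for COL18A1 (0.00515), 0.905 for BMP1 (0.0454) and 0.863 for F2R (0.0358) among genes higher in Jag1WT. Among those lower they were -4.86 for HDAC11 (0.0454), -4.25 for CSMD1 (4.88e-04), -4.19 for CHMP1B2P (0.00515), -3.80 for IGFN1 (0.0194), -3.69 for ROBO2 (0.00515), -2.99 for LINC02864 (0.00738), -2.96 for MAGEC1 (3.25e-04), -2.48 for IL13RA2 (0.00515), -2.44 for MAGEC2 (6.57e-04), -2.35 for FST (0.0262), -2.21 for PAGE5 (7.09e-04), -2.10 for KCNN3 (0.00116), -1.94 for ADAMTS1 (0.00256), -1.55 for SPANXB1 (0.00256) and -1.27 for MAGEA11 (0.0401). CHMP1B2P and the MAGE and SPANX genes have near copies, so their reads may be split.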

How the results depend on the processing

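The 74 single-gene log2 fold changes were recomputed under each alternative, which gave 1163 values. Of these, 175 fell short of the threshold and 33 newly passed it. In 14 values of 6 genes, none of them called in either fit, the sign turned. With the proliferation covariate CCND1 had -0.14, SNAI2 0.44 and CD68 0.20, and HES7 had 0.071 with limma and 0.011 with the block. Over the fits without 1 library, and the one without both Jag1WT replicate 2 and Jag1KO replicate 1, CCND1 ran from -0.032 (without Jag1KO replicate 2) to 0.50, SNAI2 from -0.65 to 0.037 (without Jag1KO replicate 2), HES7 from -0.42 to 1.066 (without both; 0.99 without Jag1KO replicate 1), COL1A1 from -0.43 (without both) to 0.33, and JAG2 from -0.37 to 0.072 (without Jag1WT replicate 1). COL1A1 was also below 0 without Jag1WT replicate 2 (-0.25), Jag1KO replicate 1 (-0.14) or Jag1KO replicate 3 (-0.031). Of 464 list medians 51 moved by more than the spread and 42 changed sign. Counts of called genes moved more. Jag1WT against Jag1KO gave 116 higher and 119 lower with DESeq2, 95 and 78 without the CPM filter, 35 and 29 with a level above 1 CPM required in all 6 libraries (64 of the 91 calls kept), 83 and 66 with all 18 libraries in the fit, and 221 and 111 with the proliferation covariate. limma gave 55 and 38. Replicate numbers paired the libraries at most in part. Same-numbered deviations correlated at 0.632 and 0.667 for replicates 1 and 2, but at -0.0136 for replicate 3. The main fit held no block, and a fit with the replicate number as a block gave 160 higher and 158 lower, with 90 of the 91 genes kept. Leaving out 1 library gave 2 to 336 higher and 10 to 530 lower, the highest without Jag1KO replicate 1 and the lowest without Jag1WT replicate 3. Leaving out both Jag1WT replicate 2 and Jag1KO replicate 1, chosen after seeing the data, gave 791 and 1093, with all 91 genes kept. The log2 fold change of JAG1 stayed between 1.53 and 1.95 without 1 library, with an adjusted p above 0.05 without Jag1WT replicate 1, 2 or 3 or Jag1KO replicate 3, and was 1.42 without both Jag1WT replicate 2 and Jag1KO replicate 1. The genes whose knockout and siRNA effects differ numbered 14, then 26 with the block and 0 to 15 without 1 library, being 0 without any 1 of the Jag1WT libraries or siCtrl replicate 3. The difference of effects, knockout against rescue, passed in 80, then 16 to 2601 without 1 library, where 2601 came without Jag1KO + ctrl replicate 3. The cause of these shifts was not tested. With 3 libraries a group, depth limits genes near 1 CPM, where fold changes rest on few reads.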

Other observations

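Some called genes outside the lists are given here, named after their values were seen. Among those higher in Jag1WT, the chemerin receptor gene CMKLR1 had 5.30, 4.36 and 3.39 CPM in Jag1WT and 0.652, 1.47 and 0.764 CPM in Jag1KO (log2 fold change 2.17, edgeR adjusted p = 0.0431). The nucleotide receptor gene P2RY2 had 36.5, 36.5 and 31.5 CPM against 16.5, 16.1 and 17.01 CPM (edgeR adjusted p = 0.0114). ADAM19, a sheddase, had 67.3, 81.0 and 61.6 CPM against 28.2, 34.7 and 32.1 CPM, and the granzyme B inhibitor gene SERPINB9 had 33.5, 41.2 and 31.6 CPM against 15.7, 17.7 and 13.3 CPM. SERPINB9 had means of 39.6 and 18.4 CPM in siCtrl and siJag1 (edgeR adjusted p = 0.116) and of 37.4 and 14.5 CPM in Jag1KO + rescue and Jag1KO + ctrl (0.104), neither past the threshold.

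Among those lower in Jag1WT, LCN2, which encodes the iron-siderophore binding protein lipocalin 2, had 59.3, 56.8 and 63.2 CPM against 135, 117 and 109 CPM (-1.02, edgeR adjusted p = 0.00994). The mineralocorticoid receptor gene NR3C2 had 42.6, 43.1 and 40.2 CPM against 80.8, 110 and 90.1 CPM, and EDN1, which encodes endothelin 1, had 10.9, 16.01 and 14.9 CPM against 26.6, 40.9 and 35.0 CPM. VIPR1, the receptor of vasoactive intestinal peptide, had 5.43, 3.83 and 4.57 CPM against 11.7, 13.9 and 17.1 CPM, and means of 5.29 and 13.2 CPM in siCtrl and siJag1 (edgeR adjusted p = 0.973) and of 6.76 and 17.6 CPM in Jag1KO + rescue and Jag1KO + ctrl (0.104), neither past the threshold.

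The noncoding genes CCAT1 and PVT1, both near MYC on chromosome 8, went in opposite directions, CCAT1 with 4.61, 5.19 and 5.02 CPM against 1.76, 1.85 and 1.05 CPM and PVT1 with 20.1, 19.1 and 19.0 CPM against 40.0, 35.5 and 34.8 CPM.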
